A study of Mus musculus with 96 samples.

Results

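Brown adipose tissue of DBA/2J mice was compared between a high-fat diet and a standard breeding diet on 12 of the 96 arrays of the series. The members were the 6 high-fat and 6 standard-diet arrays whose titles name brown fat. The study profiled 8 tissues of this inbred strain after 6 weeks of feeding, when the mice were 12 weeks old, and every tissue and diet has 6 biological replicates. Total RNA was labelled with biotin and hybridized to Illumina Mouse-6 BeadChips, which give a fluorescence intensity per probe. Mice of both groups were fasted briefly and dissected in the early afternoon over successive days, and the day of an animal is not labelled. Neither the sex of the mice nor what the diets contained is stated in the labels. The labels name one strain and no transgene or drug in either group, and the diet as what differed. The series' text describes brown fat as lying within white adipose tissue, from which it was dissected. The labels tie no tissue to a numbered animal.

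Brown adipocytes hold many mitochondria and burn fatty acids and glucose for heat. Noradrenaline from sympathetic nerves acts through beta-adrenergic receptors and cyclic AMP to release fatty acids, which activate the uncoupling protein Ucp1 in the inner mitochondrial membrane. The tissue also makes fatty acids from glucose, stores them in many small droplets, and in overfed rodents can take on lipid and features of white fat.

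Levels below are log2 intensities after background correction and quantile normalization of the 12 arrays together, and a difference is the high-fat mean minus the standard-diet mean on that scale, ± its standard error. A gene was called when its adjusted p-value (limma, Benjamini-Hochberg over 18052 tested named genes and unnamed probes, together counted as genes below) was below 0.05. The arrays differed in brightness, taken as the ratio of upper-quartile to median raw intensity. It was 1.70 to 1.85 on the standard diet, 1.96 and 2.05 on high-fat replicates 1 and 2, and 1.34 to 1.45 on high-fat replicates 3 to 6. The group means, 1.78 and 1.59, gave p = 0.203 in an exact two-sided permutation test (n = 6 against 6), with the high-fat arrays on both sides of the standard-diet arrays. Results for many genes and lists are therefore also given from a fit with a term for replicates 3 to 6, in which the diet difference rests on replicates 1 and 2, here called the bright pair. The p-values given for the bright pair come from that fit and also draw on the spread among replicates 3 to 6. A fit that left out high-fat replicates 3 to 6 called 70 genes. Bulk tissue was measured, so a larger share of a cell type and more RNA per cell cannot be told apart.

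The label was checked against marker genes. The brown adipocyte genes Ucp1, Cidea, Cox8b and Cox7a1 were among the brightest on every array, with levels of 14.78 to 15.96 where the highest signal was 16.02. Skeletal muscle markers were also bright: the summed signal of their 18 tested genes was 17.33 to 18.14 on the standard diet and 17.77 to 18.06 on 5 of the high-fat arrays, but 15.43 on high-fat replicate 3. None of the muscle markers was called, and the part of muscle RNA in the results below was not tested. Without replicate 3, 1777 genes were called in place of 2739.

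**Figure D1:**
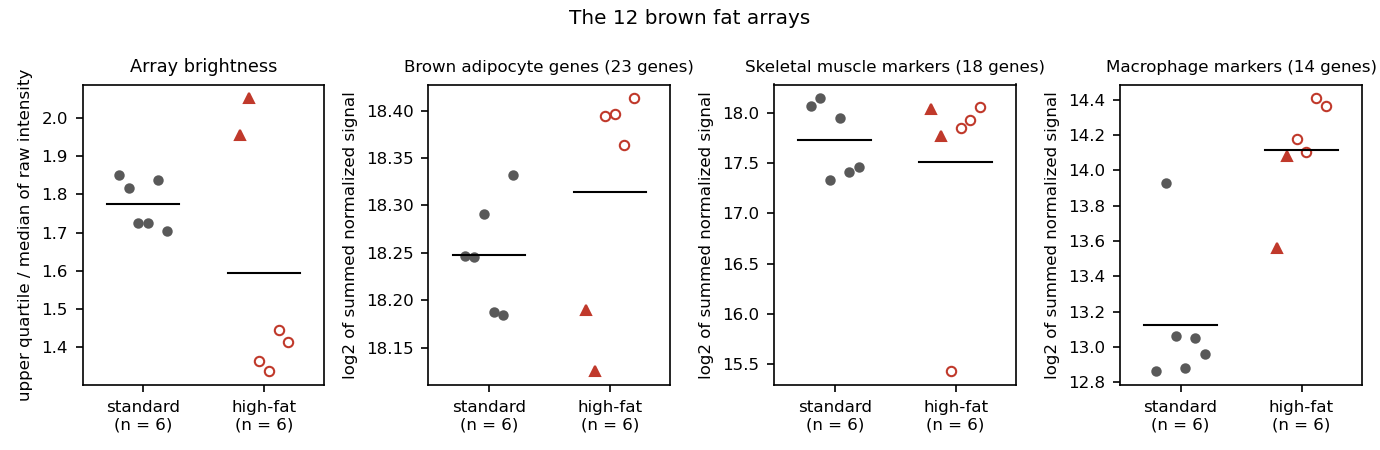
Brightness of the 12 arrays and the summed signal of brown adipocyte, skeletal muscle and macrophage genes, in log2. Filled circles are standard-diet arrays, triangles high-fat replicates 1 and 2, open circles high-fat replicates 3 to 6, and bars the group means; replicate 3 lies alone at 15.43 for muscle.

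The diet comparison called 2739 of 18052 genes (15.2%), of which 1215 (6.73% of those tested) were higher and 1524 (8.44%) lower on the high-fat diet. The groups did not overlap at all for 965 tested genes (5.35%), and 905 of these were called. Both arrays of the bright pair lay beyond all standard-diet arrays for 2559 genes (14.2%), and for 1127 called genes they did so in the called direction. The 15 largest rises and falls named below were taken from these 1127, so this position of the bright pair is no check of them. The term for the dim arrays left 179 calls (0.992%), 168 of them shared with the 2739, and 2716 of the 2739 kept their sign there. Brightness as a covariate left 1454 calls (8.05%), of which 1404 were shared. Counts of list members below stand against these shares of all genes. The choice of scaling mattered: median scaling called 101 genes, shifted the median difference of all genes from -0.03 to -0.23, and moved the share of calls that were higher from 44.4% to 32.7%. Among calls of at least 1.5-fold, of which there were 525, the share higher was 68.8%. Small rises are therefore relative to the quantile scale. List medians that turned negative with median scaling, beside those given further on, were those of acute-phase genes (0.25 to -0.04), interferon response (0.15 to -0.08), matrix remodelling (0.26 to -0.06), endothelial genes (0.25 to -0.09), adrenergic signalling (0.06 to -0.29), the clock (0.13 to -0.15) and triglyceride synthesis (0.09 to -0.24). So did those of the lists for fatty acid uptake, insulin and glucose uptake, creatine and calcium cycling, sterol control, and serotonin and monoamine genes.

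Cyp2e1, a cytochrome P450 that oxidizes ethanol, ketones and fatty acids, fell furthest of the genes named here. Its level was 12.14 to 13.83 (median 12.85) on the standard diet and 8.97 to 10.09 (median 9.50) on the high-fat diet, with 10.04 and 10.09 on the bright pair. The groups were far apart on every array. Cyp2e1 fell by 3.43 ± 0.28, or 10.8-fold (limma, adjusted p = 2.27e-06), with a difference of -2.90 in the fit with the term for the dim arrays (adjusted p = 0.000896). Tjp3, which encodes the tight junction protein ZO-3, was at 8.30 to 8.89 (median 8.44) on the standard diet and 6.48 to 7.12 (median 6.75) on the high-fat diet. It fell by 1.70 ± 0.13 (adjusted p = 1.71e-06), and the groups did not overlap. All its high-fat values lay near the dim end of the scale.

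Pth1r encodes the receptor for parathyroid hormone and its related peptide, a receptor coupled to cyclic AMP. Its level was 9.0 to 9.63 (median 9.40) on the standard diet and 7.61 to 8.07 (median 7.78) on the high-fat diet, a fall of 1.43 in the bright pair (adjusted p = 0.000896) against 1.51 ± 0.12 over all arrays (adjusted p = 2.75e-06). Hcar1, the lactate receptor that restrains lipolysis in adipocytes, ran from 9.43 to 10.38 (median 9.81) on the standard diet down to 8.32 to 8.92 (median 8.70). Neither receptor had overlapping groups, and Hcar1 fell by 1.19 ± 0.15 (adjusted p = 0.000128). Other genes among the 15 largest falls were Snhg11, a host transcript of small nucleolar RNAs (-1.29 ± 0.12, adjusted p = 1.38e-05), the glutathione transferase Gstp3 (-1.24 ± 0.15, adjusted p = 0.000104), the guanine nucleotide exchange factor Ngef (-1.14 ± 0.18, adjusted p = 0.000854), Mmd2 (-1.12 ± 0.14, adjusted p = 0.000168), the sortilin-family receptor Sorcs2 (-1.04 ± 0.16, adjusted p = 0.000739) and the vesicle motor Myo5b (-1.04 ± 0.13, adjusted p = 0.000175). With the term for the dim arrays, Stxbp2, which encodes the syntaxin-binding protein Munc18-2 of secretory granules, also stood among the smallest p-values. Its level was 12.15 to 12.47 (median 12.32) on the standard diet and 11.27 to 11.52 (median 11.38) on the high-fat diet. The bright pair, at 11.42 and 11.52, lay with the other high-fat arrays, and Stxbp2 fell by 0.95 ± 0.08 (adjusted p = 4.36e-06).

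Npr3, the clearance receptor that removes natriuretic peptides and so limits their lipolytic signal, had the smallest p-value of the genes that rose. Its level was 8.67 to 9.14 (median 9.08) on the standard diet and 10.56 to 11.05 (median 10.77) on the high-fat diet, with 10.75 and 10.56 on the bright pair. Every high-fat array was well above every standard-diet array. The rise was 1.79 ± 0.10, or 3.46-fold (limma, adjusted p = 8.59e-08), and 1.66 with the term for the dim arrays (adjusted p = 4.66e-05). Of the other tested Npr3 probes 3 rose, by 1.58 to 2.27, and 1 fell, by 0.42 (adjusted p = 0.0305). Car12, a carbonic anhydrase of the cell surface, was at 6.66 to 7.13 (median 6.90) on the standard diet and 8.46 to 9.05 (median 8.59) on the high-fat diet. This too was a separation without overlap, a rise of 1.76 ± 0.11 (adjusted p = 2.17e-07). Its standard-diet levels were near the dim end of the scale.

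**Figure D2:**
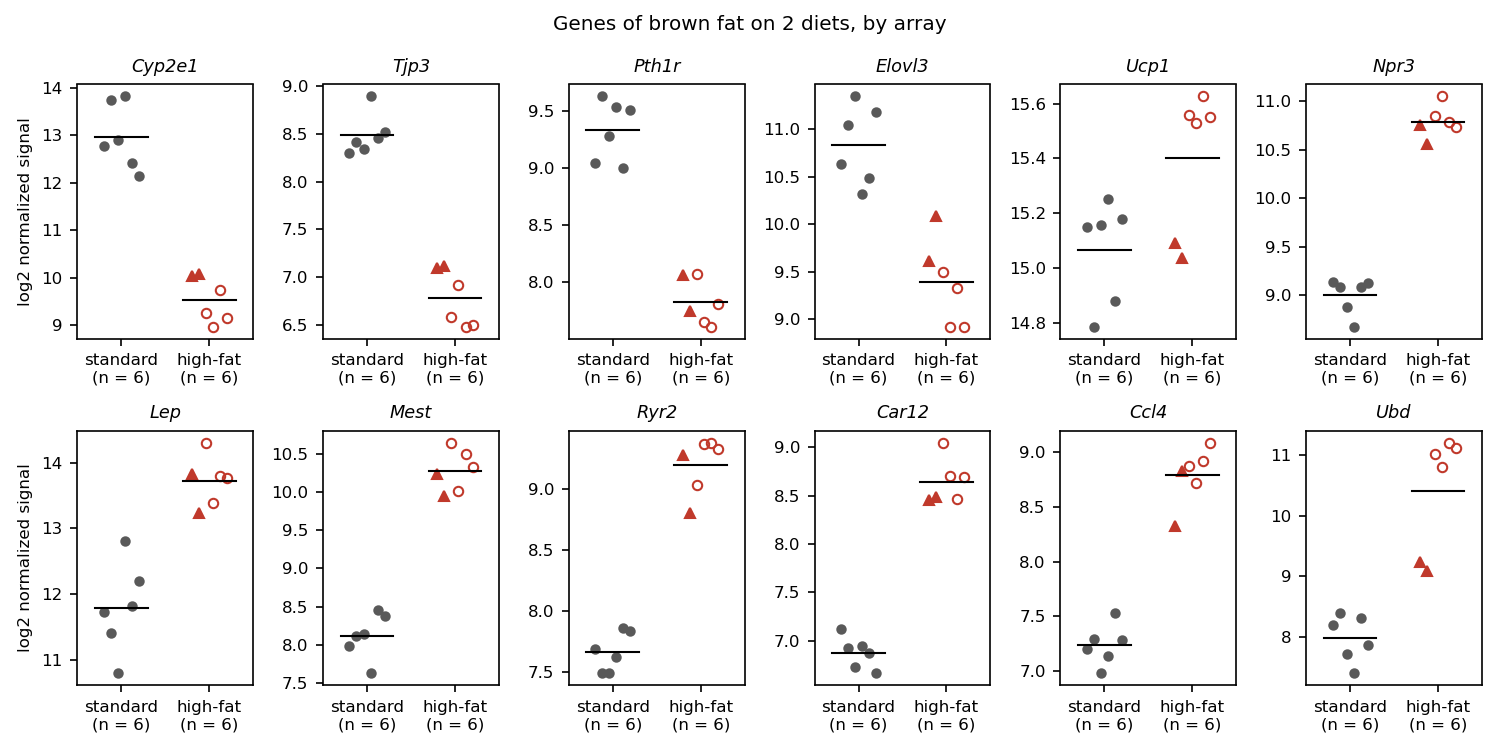
Log2 normalized signal of 12 genes on each brown fat array, with symbols as for the array plot (filled circles standard diet, triangles high-fat replicates 1 and 2, open circles high-fat replicates 3 to 6) and bars at group means; each panel has its own scale. Cyp2e1 fell by 3.43, Npr3 rose by 1.79, and the Ucp1 groups overlapped.

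Of the thermogenic genes, 1 of 23 tested rose and 3 fell, where 6.73% and 8.44% of all genes did. Their median difference was 0.00, against -0.03 over all genes, and -0.26 against -0.23 with median scaling. Ucp1 itself was at 14.78 to 15.25 (median 15.15) on the standard diet and 15.04 to 15.63 (median 15.54) on the high-fat diet. The bright pair, at 15.09 and 15.04, lay within the standard-diet range, while replicates 3 to 6 were higher. The difference was 0.33 ± 0.12 and did not pass (limma, adjusted p = 0.0715); in the bright pair the adjusted p was 0.996. The summed signal of all 23 genes was 18.18 to 18.33 on the standard diet, 18.19 and 18.12 on the bright pair and 18.36 to 18.41 on replicates 3 to 6, so that the dim arrays were the highest. The part of array brightness in this was not tested.

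Elovl3, an elongase of very long fatty acids that is strongly induced by cold, was the thermogenic gene that changed most. Its level was 10.32 to 11.35 (median 10.84) on the standard diet and 8.92 to 10.09 (median 9.42) on the high-fat diet. Both groups varied, but no high-fat array reached the lowest standard-diet array. Elovl3 fell by 1.44 ± 0.21, or 2.71-fold (adjusted p = 0.000454), but the bright pair's difference of -0.98 did not pass (adjusted p = 0.0817). Kcnk3, a potassium channel of brown adipocytes, fell by 0.60 ± 0.12 (adjusted p = 0.00528), and the very long chain acyl-CoA synthetase Slc27a2 by 0.74 ± 0.21 (adjusted p = 0.0276). Cpt1b, which carries fatty acids into mitochondria, rose by 0.29 ± 0.09 (adjusted p = 0.0341), but was at -0.10 with median scaling. The other 19 members did not pass, and with the term for the dim arrays no member was called. Differences and standard errors were 0.05 ± 0.13 for Cidea, 0.00 ± 0.10 for Cox8b, -0.03 ± 0.08 for Cox7a1, 0.25 ± 0.14 for the deiodinase Dio2, 0.09 ± 0.11 for the coactivator Ppargc1a, -0.16 ± 0.17 for the lineage factor Prdm16 and 0.17 ± 0.13 for Ebf2.

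Signalling genes downstream of noradrenaline and natriuretic peptides gave 2 rises and 3 falls among 16 tested. Over all genes 6.73% rose and 8.44% fell. Besides Npr3, the stimulatory G protein gene Gnas rose by 0.43 ± 0.08 (adjusted p = 0.00249), although with median scaling its difference was -0.02. The other tested Gnas probes, at -0.08 to 0.23, did not pass. Pde4d, which degrades cyclic AMP, was at 9.15 to 10.37 (median 9.75) on the standard diet and 8.88 to 9.10 (median 9.0) on the high-fat diet. The groups did not overlap, and the high-fat arrays were much less variable. Pde4d fell by 0.76 ± 0.15 (adjusted p = 0.00358) but the bright pair's difference of -0.80 did not pass (adjusted p = 0.0989). Another tested Pde4d probe was at -0.08 and did not pass. The adenylate cyclase Adcy3 fell by 0.47 ± 0.13 (adjusted p = 0.0288) and the regulator of G protein signalling Rgs2 by 0.46 ± 0.12 (adjusted p = 0.0214). The signalling receptor Npr1 did not pass (-0.19 ± 0.08, adjusted p = 0.121), nor did the kinase subunits Prkaca (0.07 ± 0.11), Prkar1a (0.07 ± 0.09) and Prkar2b (0.10 ± 0.12), the phosphodiesterase Pde3b (0.12 ± 0.08) or Npr2 (0.22 ± 0.14).

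Ryr2, the calcium release channel of the endoplasmic reticulum best known from the heart, was at 7.49 to 7.86 (median 7.66) on the standard diet and 8.80 to 9.37 (median 9.30) on the high-fat diet. The lowest high-fat array, replicate 2, was still clearly above all standard-diet arrays. Ryr2 rose by 1.53 ± 0.11, or 2.88-fold (limma, adjusted p = 7.76e-07), and by 1.37 in the bright pair (adjusted p = 0.000322). The muscle calcium pump Atp2a1 did not pass (-0.20 ± 0.33, adjusted p = 0.691). Alpl, the alkaline phosphatase that cleaves phosphocreatine in brown adipocyte mitochondria, fell by 0.51 ± 0.11 (adjusted p = 0.00576). The creatine transporter Slc6a8 (0.16 ± 0.11, adjusted p = 0.312), the creatine synthesis enzyme Gamt (0.31 ± 0.11, adjusted p = 0.0602) and the calcium pump Atp2a2 (0.12 ± 0.20, adjusted p = 0.686) did not pass.

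Cholesterol is made from acetyl-CoA through mevalonate, farnesyl pyrophosphate, squalene and lanosterol. Enzymes from several stages of this path fell: 10 of 16 tested genes fell and 1 rose, where 8.44% and 6.73% of all genes did. Their median difference was -0.55 (-0.88 with median scaling). With the term for the dim arrays, 6 of them fell and 0 rose, where 0.992% of all genes were called. Fdps, which makes farnesyl pyrophosphate, was at 12.74 to 13.45 (median 13.01) on the standard diet and 11.99 to 12.33 (median 12.09) on the high-fat diet, with 12.10 and 12.22 on the bright pair. All high-fat arrays were below all standard-diet arrays. Fdps fell by 0.90 ± 0.11 (limma, adjusted p = 0.000108) and by 0.86 in the bright pair (adjusted p = 0.0115). Sqle, the squalene epoxidase that commits the path to sterols, was at 9.87 to 10.59 (median 10.14) and 9.03 to 9.51 (median 9.27) on the standard and high-fat diets. It again separated the groups, with a fall of 0.89 ± 0.11 (adjusted p = 0.00018).

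The other falls lay between phosphomevalonate kinase and the middle of the sterol steps, and the later enzymes Hsd17b7, Ebp, Sc5d and Dhcr7 did not pass. Phosphomevalonate kinase, Pmvk, fell by 0.88 ± 0.11 (adjusted p = 0.000226), and the decarboxylase Mvd by 0.77 ± 0.14 (adjusted p = 0.00252). Lanosterol synthase, Lss, fell by 0.56 ± 0.10 (adjusted p = 0.00218). Cyp51, which removes a methyl group from lanosterol, fell by 0.84 ± 0.12 (adjusted p = 0.000373). The sterol reductase Tm7sf2 fell by 0.85 ± 0.11 (adjusted p = 0.000259) and the demethylation enzyme Nsdhl by 0.57 ± 0.09 (adjusted p = 0.0013). The remaining falls, Msmo1 and Idi1, were smaller. Hmgcs1, the cytosolic synthase that supplies the mevalonate path, went the other way. It is singled out after its values were seen: it was at 14.12 to 14.73 (median 14.47) on the standard diet and 14.76 to 15.51 (median 14.92) on the high-fat diet. The groups were adjacent and did not overlap, with high-fat replicate 2 the highest array. Hmgcs1 rose by 0.53 ± 0.13 (adjusted p = 0.0116), and in the bright pair the rise of 0.66 did not pass (adjusted p = 0.0978).

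The sterol regulatory element-binding proteins are transcription factors that switch these genes on when sterols in the endoplasmic reticulum are low, and Insig1 is one of their targets as well as the protein that holds them back. Insig1 was at 9.0 to 9.67 (median 9.41) on the standard diet and 8.17 to 8.61 (median 8.41) on the high-fat diet. No array overlapped, and Insig1 fell by 0.95 ± 0.11 (adjusted p = 0.00011), or 0.79 in the bright pair (adjusted p = 0.0193). The factor's own gene Srebf2 did not pass (-0.30 ± 0.13, adjusted p = 0.117). Of genes for sterol efflux and lysosomal release, the exporter Abcg1 rose by 0.75 ± 0.16 (adjusted p = 0.00778) and the lysosomal lipase Lipa by 0.50 ± 0.12 (adjusted p = 0.0137); both are also abundant in macrophages, whose markers rose.

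Promoters of genes on both sides are shown because these genes are textbook targets of that factor family. The windows run from 250 bases before to 50 after the start site, from RefSeq on GRCm38.p6, which is not the DBA/2J genome. Capitals mark the CCAAT motif and, where present, the sterol element TCACNCCAC, each searched on both strands. Insig1, which fell, lies at chr5:28071162-28071461 (plus strand), Cyp51, which fell, at chr5:4104648-4104947 (minus strand), Nsdhl, which fell, at chrX:72918271-72918570 (plus strand), and Hmgcs1, which rose, at chr13:119690101-119690400 (plus strand).
Insig1: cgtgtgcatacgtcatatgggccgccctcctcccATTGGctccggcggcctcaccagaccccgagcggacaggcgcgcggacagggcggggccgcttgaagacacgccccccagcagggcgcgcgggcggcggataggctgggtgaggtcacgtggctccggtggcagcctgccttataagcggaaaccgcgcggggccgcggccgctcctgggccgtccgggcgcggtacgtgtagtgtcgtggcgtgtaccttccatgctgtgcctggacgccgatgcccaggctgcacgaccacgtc
Cyp51: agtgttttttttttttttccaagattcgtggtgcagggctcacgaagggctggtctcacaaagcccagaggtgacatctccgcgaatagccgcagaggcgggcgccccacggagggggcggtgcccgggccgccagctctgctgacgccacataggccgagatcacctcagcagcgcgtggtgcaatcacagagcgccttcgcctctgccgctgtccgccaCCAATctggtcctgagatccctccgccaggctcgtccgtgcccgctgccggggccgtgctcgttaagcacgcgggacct
Nsdhl: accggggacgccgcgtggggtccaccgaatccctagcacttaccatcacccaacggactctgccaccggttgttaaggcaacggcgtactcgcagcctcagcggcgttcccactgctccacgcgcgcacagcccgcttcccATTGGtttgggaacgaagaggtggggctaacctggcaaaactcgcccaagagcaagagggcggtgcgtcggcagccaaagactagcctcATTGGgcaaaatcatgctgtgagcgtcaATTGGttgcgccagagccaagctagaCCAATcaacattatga
Hmgcs1: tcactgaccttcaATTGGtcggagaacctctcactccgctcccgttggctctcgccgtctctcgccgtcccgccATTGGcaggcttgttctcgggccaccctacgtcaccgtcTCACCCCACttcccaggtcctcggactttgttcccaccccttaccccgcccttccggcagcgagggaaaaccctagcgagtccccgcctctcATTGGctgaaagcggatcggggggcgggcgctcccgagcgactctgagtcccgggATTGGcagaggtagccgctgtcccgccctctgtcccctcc
A promoter was listed for 15 of 17 genes (the cholesterol synthesis genes tested and Insig1), and the first listed promoter of each gene was counted. No promoter was listed for Fdps and Sqle, which fell. CCAAT was found in 9 of the 9 that fell and in 5 of the other 6 (Dhcr7, the exception, holds it in another listed promoter), against 37.4% of 32851 promoters. Pmvk, one of the 9, has another listed promoter without CCAAT. The sterol element was found in 0 of the 9 that fell and in 1 of the other 6, Hmgcs1, against 1.24% of all promoters. Absence of a match says only that these letters are not in the window.

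Fatty acid synthesis starts from cytosolic acetyl-CoA, made from citrate or acetate. Of 18 tested genes 10 fell and 1 rose, with a median difference of -0.34 (-0.77 with median scaling), and 4 fell with the term for the dim arrays. Slc25a1, the carrier that exports citrate from mitochondria, was at 12.91 to 13.65 (median 13.08) on the standard diet and 11.91 to 12.11 (median 12.00) on the high-fat diet. The high-fat arrays were tightly grouped, well below the others. Slc25a1 fell by 1.14 ± 0.11, or 2.2-fold (limma, adjusted p = 1.38e-05), and by 1.06 in the bright pair (adjusted p = 0.00384). Acss2, which makes acetyl-CoA from acetate, was at 14.01 to 14.61 (median 14.29) on the standard diet and 12.98 to 13.49 (median 13.10) on the high-fat diet. It fell without overlap by 1.13 ± 0.11 (adjusted p = 1.38e-05).

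**Figure D3:**
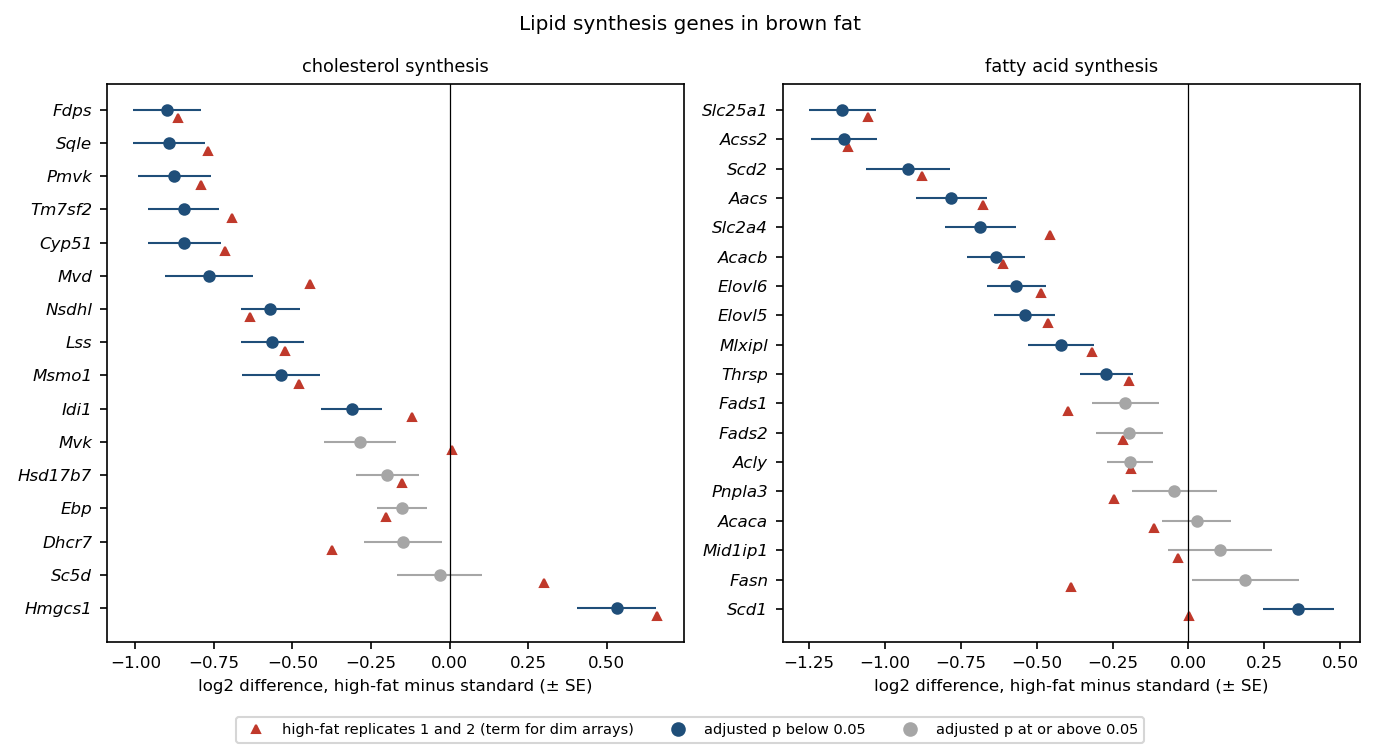
Log2 difference, high-fat minus standard diet, of every tested gene of cholesterol synthesis (left) and fatty acid synthesis (right), with bars of ± 1 standard error and dark points for an adjusted p below 0.05; triangles give the difference in the bright pair. Most points lie left of 0, Hmgcs1 and Scd1 lie right of it, and the triangle of Scd1 is at 0.

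Steps further along the fatty acid path were uneven. The desaturase Scd2 fell by 0.92 ± 0.14 (adjusted p = 0.000638), acetoacetyl-CoA synthetase Aacs by 0.78 ± 0.12 (adjusted p = 0.000689) and the mitochondrial acetyl-CoA carboxylase Acacb by 0.63 ± 0.09 (adjusted p = 0.000641). The elongases Elovl6 and Elovl5 fell by 0.57 ± 0.10 (adjusted p = 0.00182) and 0.54 ± 0.10 (adjusted p = 0.00267). The core enzymes did not pass: citrate lyase Acly was at -0.19 ± 0.08, adjusted p = 0.0883, the cytosolic carboxylase Acaca at 0.03 ± 0.11, adjusted p = 0.89, and fatty acid synthase Fasn at 0.19 ± 0.18, adjusted p = 0.472. Thrsp, a lipogenic regulator induced by thyroid hormone and carbohydrate, fell by 0.27 ± 0.09 (adjusted p = 0.0486). These genes were bright on every array, Thrsp at 15.25 to 15.53 (median 15.39) on the standard diet and 14.96 to 15.34 (median 15.07) on the high-fat diet, and its groups overlapped.

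Few respiratory chain genes changed. Of 20 tested genes of complex I, 1 rose and 2 fell, with a median of -0.01, and of 27 of complexes II to V 0 rose and 3 fell, with a median of -0.01. The shares are close to those of all genes. The ATP synthase subunit Atp5j fell by 0.54 ± 0.08 (adjusted p = 0.000588) and by 0.52 in the bright pair (adjusted p = 0.0361), and the complex I subunit Ndufa1 fell by 0.41 ± 0.08 (adjusted p = 0.00365). At the entry to the citrate cycle, pyruvate carboxylase Pcx was at 11.20 to 11.80 (median 11.62) on the standard diet and 10.65 to 10.98 (median 10.85) on the high-fat diet. The groups did not overlap, and Pcx fell by 0.70 ± 0.10 (adjusted p = 0.000588). The pyruvate dehydrogenase subunit Dlat fell by 0.41 ± 0.09 (adjusted p = 0.00749) and its kinases Pdk1 and Pdk4 by 0.35 ± 0.08 (adjusted p = 0.0141) and 0.33 ± 0.11 (adjusted p = 0.0469). Mdh2 and Fh1, later enzymes of the cycle, rose by 0.79 ± 0.22 (adjusted p = 0.0274) and 0.83 ± 0.24 (adjusted p = 0.0319), with high-fat replicate 2 inside the standard-diet range for both.

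Genes that oxidize fatty acids in mitochondria gave 6 rises and 1 fall among 19 tested, with a median of 0.19 that turned to -0.14 with median scaling (all genes, -0.23). Hadh, the short-chain hydroxyacyl-CoA dehydrogenase, was at 9.94 to 10.11 (median 10.03) on the standard diet and 10.21 to 10.84 (median 10.73) on the high-fat diet. It rose without overlap, by 0.65 ± 0.10 (limma, adjusted p = 0.000854). The subunits of the trifunctional protein went apart on their brightest probes: Hadhb rose by 0.51 ± 0.13 (adjusted p = 0.0185), and Hadha fell by 0.58 ± 0.11 (adjusted p = 0.00252). The other tested probes of Hadh (0.08), Hadhb (0.05) and Hadha (0.26) did not pass, and that of Hadha had the opposite sign. No member was called in the bright pair. Peroxisomal lipid genes gave 0 rises and 4 falls among 13, led by the fatty acid importer Abcd3, which fell by 0.69 ± 0.12 (adjusted p = 0.00193), and the import receptor Pex5, which fell by 0.57 ± 0.12 (adjusted p = 0.00489). Of 17 genes for ketone and branched-chain amino acid use 4 rose and 0 fell. Bckdhb, a subunit of the branched-chain ketoacid dehydrogenase, rose by 0.64 ± 0.15 (adjusted p = 0.0103), and Pcca, a propionyl-CoA carboxylase subunit, by 0.48 ± 0.10 (adjusted p = 0.00503). The median of these genes was 0.14, or -0.20 with median scaling.

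Some genes of glucose handling fell. Slc2a4, the insulin-responsive glucose transporter, was at 11.33 to 11.84 (median 11.59) on the standard diet and 10.67 to 11.20 (median 10.89) on the high-fat diet. No array overlapped, and Slc2a4 fell by 0.68 ± 0.12 (adjusted p = 0.00154). Irs1, which couples the insulin receptor to its kinases, fell by 0.78 ± 0.14 (adjusted p = 0.00238). Ppp1r3b directs a phosphatase to glycogen. It was at 12.72 to 13.73 (median 13.07) on the standard diet and 11.70 to 12.61 (median 11.96) on the high-fat diet, a fall of 1.11 ± 0.17 (adjusted p = 0.000918). In the bright pair the difference of -0.71 did not pass (adjusted p = 0.127). Its relative Ppp1r3c fell by 0.58 ± 0.14 (adjusted p = 0.0119) and the phosphofructokinase Pfkl by 0.44 ± 0.08 (adjusted p = 0.00268). Over the glycolysis and glycogen list 1 of 22 rose and 3 fell, and over the insulin list 1 of 13 rose and 2 fell, counts that lie near the 6.73% and 8.44% of all genes.

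Lipid droplet and lipolysis genes gave 2 rises and 3 falls among 17, where 6.73% of all genes rose and 8.44% fell. The falls were the lipase Pnpla2, its partner lipase Lipe and the droplet coat Plin1. Pnpla2 was at 15.47 to 15.90 (median 15.70) on the standard diet and 15.02 to 15.55 (median 15.34) on the high-fat diet, and the bright pair, at 15.18 and 15.02, held its lowest values. It fell by 0.39 ± 0.10 (limma, adjusted p = 0.0182), and by 0.59 in the bright pair (adjusted p = 0.0294). Lipe fell by 0.31 ± 0.08 (adjusted p = 0.0258) and Plin1 by 0.44 ± 0.11 (adjusted p = 0.0143). Hilpda, an inhibitor of Pnpla2, rose by 0.41 ± 0.10 (adjusted p = 0.0122). Angptl4, which inhibits lipoprotein lipase, rose by 0.42 ± 0.10 (adjusted p = 0.0118), with 0.03 under median scaling. For triglyceride synthesis the acyltransferase Mogat1 fell by 0.62 ± 0.10 (adjusted p = 0.00102), one of 3 falls and 2 rises among 12. Cd36, which takes up fatty acids, did not pass over all arrays (0.27 ± 0.15, adjusted p = 0.213) but was at 7.85 and 7.83 on the bright pair against 6.76 to 7.31 (median 7.23) on the standard diet, and it was called in the fit with the term for the dim arrays (adjusted p = 0.0179). Its probe was dim on all arrays.

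Several genes typical of white adipocytes, and adipokines, rose. Of 15 tested, 8 rose and 0 fell, 5 rose with the term for the dim arrays, and the median was 0.47 (0.20 with median scaling). Lep, the satiety hormone leptin, was at 10.79 to 12.80 (median 11.78) on the standard diet and 13.23 to 14.30 (median 13.78) on the high-fat diet. It varied widely between standard-diet mice, yet no group overlapped. Lep rose by 1.92 ± 0.26, or 3.79-fold (limma, adjusted p = 0.00028), and by 1.74 in the bright pair (adjusted p = 0.0378). Mest, an imprinted gene known to rise as adipocytes expand, was at 7.63 to 8.45 (median 8.13) on the standard diet and 9.95 to 10.64 (median 10.28) on the high-fat diet. The distance between the groups exceeded the range of either, and the rise was 2.16 ± 0.14 (adjusted p = 2.94e-07).

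Nnat, another imprinted gene, which encodes a small protein of the endoplasmic reticulum, rose by 1.34 ± 0.15 (adjusted p = 5.7e-05), and Sncg, a synuclein of adipocytes and neurons, by 1.49 ± 0.18 (adjusted p = 9.6e-05). The Wnt inhibitor Sfrp5 rose by 0.47 ± 0.10 (adjusted p = 0.00553), Wfdc21 by 0.57 ± 0.12 (adjusted p = 0.0062) and the serine synthesis enzyme Psat1 by 0.55 ± 0.15 (adjusted p = 0.0212). Adiponectin did not pass (Adipoq, 0.06 ± 0.07, adjusted p = 0.584), nor did resistin (Retn, -0.17 ± 0.12, adjusted p = 0.345), Nrg4 (0.23 ± 0.09, adjusted p = 0.0826), Fgf21 (-0.01 ± 0.13, adjusted p = 0.98), Bmp3 (0.01 ± 0.13, adjusted p = 0.98), Igfbp3 (-0.24 ± 0.12, adjusted p = 0.181) or Hoxc8 (0.10 ± 0.12, adjusted p = 0.552), a positional gene of white depots. RNA from white fat around the tissue and white-type expression in brown adipocytes cannot be told apart here. Dlk1, a surface protein of preadipocytes, was at 8.47 to 8.89 (median 8.75) on the standard diet and 7.30 to 8.12 (median 7.62) on the high-fat diet. It separated the groups and fell by 1.04 ± 0.13 (adjusted p = 0.000109).

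Macrophage markers rose on the high-fat diet in 12 of 14 tested, and 0 fell, with a median of 0.84 (0.58 with median scaling). Their summed signal was 12.86 to 13.93 on the standard diet, 13.56 and 14.08 on the bright pair and 14.10 to 14.41 on replicates 3 to 6. One standard-diet array, replicate 2, reached the high-fat range, and without it 12 markers were called. With the term for the dim arrays 1 of the markers was called, and with brightness as a covariate 8. Mpeg1, a pore-forming protein of macrophages, was at 7.39 to 8.15 (median 7.94) on the standard diet and 8.57 to 9.87 (median 9.40) on the high-fat diet, with the bright pair at 8.71 and 8.57. It rose by 1.43 ± 0.20 (limma, adjusted p = 0.00035) and by 0.82 in the bright pair (adjusted p = 0.0409). The adaptor Tyrobp rose by 1.10 ± 0.17 (adjusted p = 0.000649), lysozyme Lyz2 by 1.11 ± 0.20 (adjusted p = 0.00244) and the macrophage surface antigen Adgre1 by 0.95 ± 0.22 (adjusted p = 0.0106).

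Of 13 genes of lipid-laden macrophages 7 rose and 0 fell, and 1 rose with the term for the dim arrays. Mmp12, the macrophage elastase, was at 6.82 to 7.44 (median 7.05) on the standard diet and 8.21 to 9.86 (median 9.16) on the high-fat diet. The bright pair, at 8.25 and 8.21, was at the low end of the high-fat arrays but above all standard-diet arrays. Mmp12 rose by 1.99 ± 0.25, or 3.98-fold (adjusted p = 0.000137), and by 1.15 in the bright pair (adjusted p = 0.00988). Trem2, a lipid receptor, rose by 1.44 ± 0.23 (adjusted p = 0.00123), and the galectin Lgals3 by 1.56 ± 0.27 (adjusted p = 0.00177); in both, standard-diet replicate 2 was the highest of its group and reached into the high-fat range. Neither passed in the bright pair (adjusted p = 0.126 and 0.142). MHC class II genes rose in 5 of 8, among them H2-Ab1 (0.89 ± 0.16, adjusted p = 0.00235) and the invariant chain Cd74 (0.58 ± 0.13, adjusted p = 0.00928), but 0 were called with the term for the dim arrays. No neutrophil or mast cell marker was called among 10, and of 7 lymphocyte markers 0 rose and 1 fell. The summed lymphocyte signal was 12.95 to 13.36 (median 13.16) on the standard diet and 12.60 to 13.01 (median 12.84) on the high-fat diet, so the groups overlapped.

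Many cytokines and chemokines rose: 12 of 21 rose over all arrays and 6 with the term for the dim ones, while 1 fell over all arrays. Cxcl1, which attracts neutrophils, was at 7.92 to 8.11 (median 8.06) on the standard diet and 9.11 to 9.44 (median 9.24) on the high-fat diet. Both groups were tight and far apart. Cxcl1 rose by 1.23 ± 0.08 (limma, adjusted p = 2.94e-07), and by 1.21 in the bright pair (adjusted p = 8.76e-05). Ccl4, a chemokine that attracts monocytes and T cells, was at 6.98 to 7.53 (median 7.24) on the standard diet and 8.33 to 9.09 (median 8.85) on the high-fat diet, and rose by 1.55 ± 0.12 (adjusted p = 1.71e-06). The monocyte attractants Ccl2 and Ccl7 rose by 0.89 ± 0.09 (adjusted p = 3.86e-05) and 1.14 ± 0.13 (adjusted p = 6.95e-05), and Ccl3 by 0.75 ± 0.11 (adjusted p = 0.000479). None of these 5 chemokines had overlapping groups.

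Acute-phase genes gave 5 rises and 1 fall among 13, and 3 rises with the term for the dim arrays. Over all genes 6.73% rose and 8.44% fell, and 0.992% were called with the term. Lcn2, which binds bacterial siderophores, was at 6.98 to 8.27 (median 7.41) on the standard diet and 8.65 to 9.86 (median 9.61) on the high-fat diet, and rose by 2.04 ± 0.21 (adjusted p = 2.99e-05). Lbp, which presents endotoxin, rose by 1.40 ± 0.15 (adjusted p = 4.28e-05), and serum amyloid Saa3 by 1.45 ± 0.17 (adjusted p = 6.95e-05), while the orosomucoid Orm1 fell by 0.45 ± 0.08 (adjusted p = 0.00152). Ubd, a ubiquitin-like modifier induced by interferon gamma and tumour necrosis factor, was at 7.40 to 8.40 (median 8.04) on the standard diet and 9.08 to 11.21 (median 10.92) on the high-fat diet. The bright pair, at 9.25 and 9.08, was well below replicates 3 to 6, although above the standard diet. Ubd rose by 2.43 ± 0.35 (adjusted p = 0.000444) over all arrays and by 1.18 in the bright pair (adjusted p = 0.0139). Interferon response genes gave 4 rises and 0 falls among 18 with Ubd included, and 1 rise with the term for the dim arrays.

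Collagen and matrix genes rose in 13 of 26, and 0 fell, with a median of 0.39 (0.07 with median scaling). With the term for the dim arrays 1 was called, Col8a1, a short-chain collagen of vessel walls. Col8a1 rose by 0.73 ± 0.10 (adjusted p = 0.000299), and the fibrillar collagen Col3a1 by 0.95 ± 0.20 (adjusted p = 0.00652). Lox, which crosslinks collagen, was at 11.06 to 11.36 (median 11.13) on the standard diet and 11.76 to 12.05 (median 11.94) on the high-fat diet. It rose without overlap by 0.76 ± 0.08 (limma, adjusted p = 3.52e-05) and by 0.66 in the bright pair (adjusted p = 0.0073). Matrix remodelling genes gave 9 rises and 1 fall among 26 (3 and 0 with the term for the dim arrays), including the related Loxl1 (0.52 ± 0.10, adjusted p = 0.00272) and the collagen receptor Mrc2 (0.79 ± 0.14, adjusted p = 0.00179). Endothelial genes gave 4 rises and 1 fall among 19, and none with the term for the dim arrays. Emcn rose by 0.48 ± 0.09 (adjusted p = 0.00314) and the adhesion protein Cdh5 by 0.76 ± 0.16 (adjusted p = 0.00508), while the nitric oxide synthase Nos3 fell by 0.56 ± 0.10 (adjusted p = 0.0022).

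**Figure D4:**
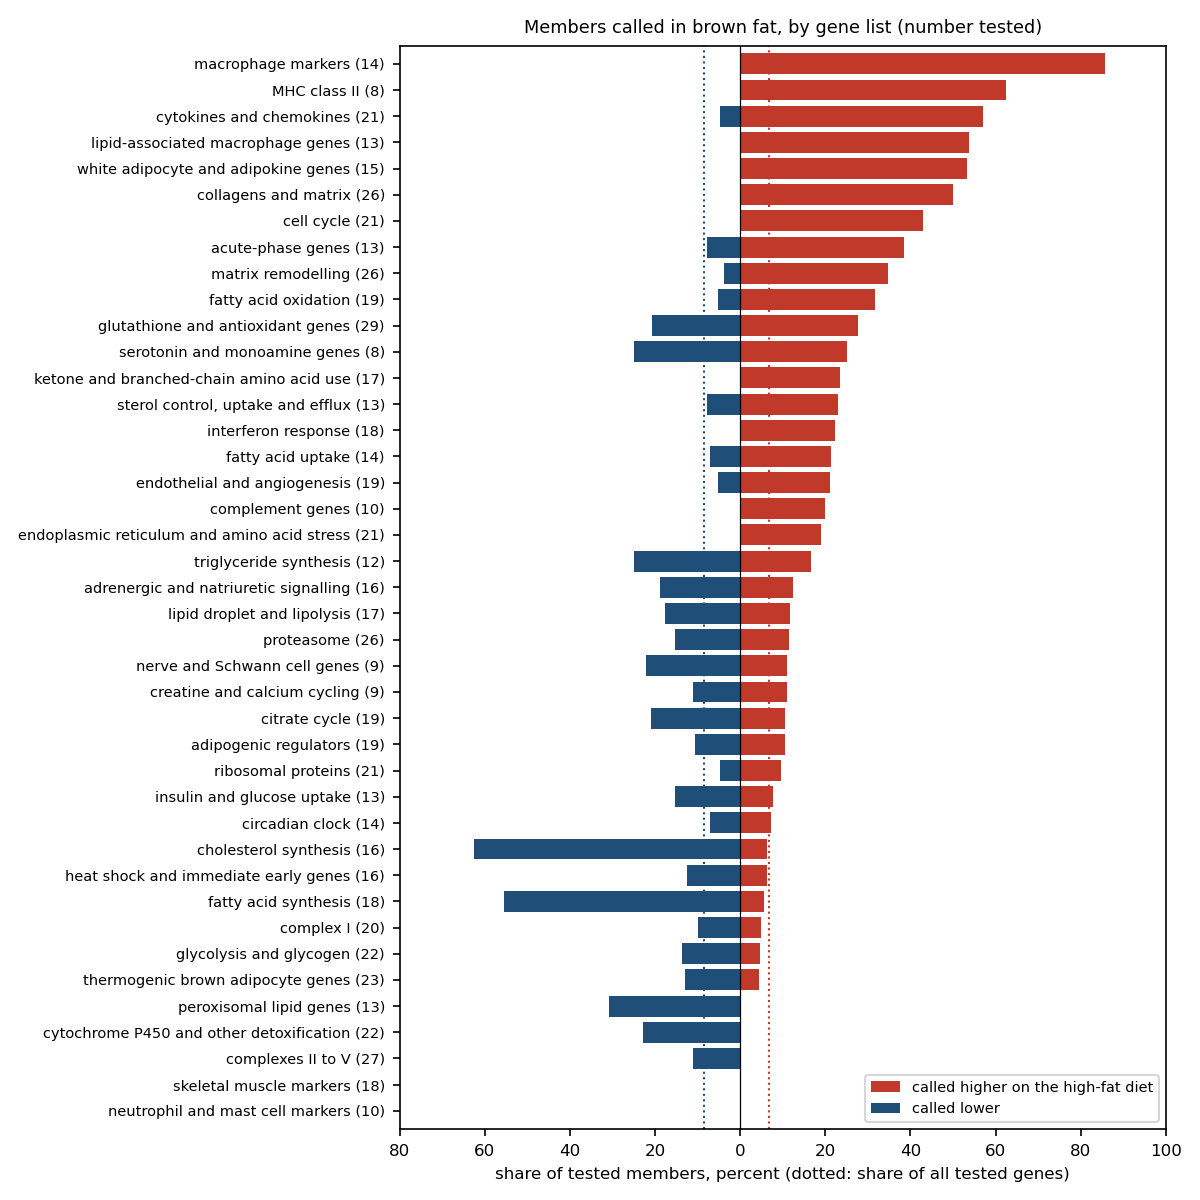
Share of each list's tested members called higher (right, red) or lower (left, blue) on the high-fat diet in brown fat, in percent, for lists of at least 8 tested genes, with the number tested in brackets. Dotted lines give the shares over all genes, 6.73% higher and 8.44% lower; macrophage markers reach furthest right and cholesterol synthesis furthest left.

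Cell cycle genes rose in 9 of 21, and 0 fell, with a median of 0.34 (0.10 with median scaling), and 2 rose with the term for the dim arrays. Ccnd1, the cyclin that drives entry into the cycle, was at 10.42 to 11.12 (median 11.02) on the standard diet and 11.93 to 12.29 (median 12.12) on the high-fat diet. All high-fat arrays were above all others. Ccnd1 rose by 1.23 ± 0.12, or 2.34-fold (limma, adjusted p = 1.43e-05), and by 1.12 in the bright pair (adjusted p = 0.00449). The mitotic kinase Cdk1 rose by 0.64 ± 0.09 (adjusted p = 0.00051), thymidine kinase Tk1 by 0.73 ± 0.11 (adjusted p = 0.000697) and the replication helicase subunit Mcm5 by 0.99 ± 0.15 (adjusted p = 0.00078). Cdk1 and Tk1 were dim on both diets, with no array above 7.84 in either.

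Of 22 detoxification genes 5 fell, Cyp2e1 among them, and 0 rose, and 1 fell with the term for the dim arrays. Over all genes 8.44% fell and 6.73% rose, and 0.992% were called with the term. The falls included the acetaldehyde dehydrogenase Aldh2 (-0.46 ± 0.09, adjusted p = 0.00325) and the aldehyde oxidase Aox1 (-0.39 ± 0.09, adjusted p = 0.0121). Glutathione and antioxidant genes were mixed, with 8 rises and 6 falls among 29, and 1 and 1 with the term for the dim arrays. The transferase Gsta3 was at 8.28 to 8.84 (median 8.58) on the standard diet and 7.30 to 7.87 (median 7.56) on the high-fat diet. It fell without overlap by 0.94 ± 0.11 (adjusted p = 0.000125), and by 0.99 in the bright pair (adjusted p = 0.0098). Glutathione synthetase Gss rose by 0.44 ± 0.11 (adjusted p = 0.0163), and by 0.68 in the bright pair (adjusted p = 0.0167).

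Tph2, the neuronal form of the enzyme that starts serotonin synthesis, was near background on the standard diet. It was at 6.13 to 6.67 (median 6.40) there and at 7.55 to 10.25 (median 9.44) on the high-fat diet, with 8.07 and 7.55 on the bright pair. All 6 high-fat arrays were above the standard diet, over a wide range. Tph2 rose by 2.76 ± 0.37 (adjusted p = 0.00028), and by 1.44 in the bright pair (adjusted p = 0.0105). Gch1, which makes the cofactor of that enzyme, rose by 0.57 ± 0.09 (adjusted p = 0.000987), and Pts, the next enzyme of cofactor synthesis, fell by 0.46 ± 0.10 (adjusted p = 0.00578). S100b, a calcium-binding protein of glia and adipocytes, rose by 1.44 ± 0.18 (adjusted p = 0.000133). It was the only rise among 9 nerve and Schwann cell genes tested, of which 2 fell, with a list median of -0.08. Of 14 clock genes 1 rose and 1 fell, the latter being the core activator Arntl (-0.62 ± 0.12, adjusted p = 0.00414). The clock counts lie near the 6.73% and 8.44% of all genes.

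Genes are given by their brightest probe, and probes of a gene did not always move together. Of the genes named here, 61 had another tested probe, and for 32 called genes another probe did not pass. Sterol genes kept their sign on the other probes: Fdps had -0.23 there (adjusted p = 0.27), Sqle -0.34 (adjusted p = 0.0593), Lss -0.28 and Nsdhl -0.61 and -0.31, while the other probes of Insig1 (-0.93) and Cyp51 (-0.78) were called too. Cyp2e1 fell by 2.95 on its other probe, and the other probes of Ccnd1 rose by 0.40 to 1.21. The other probes differed in sign, without passing, for genes that included Mpeg1 (-0.12), Mrc2 (-0.22 and -0.20), Hadha (0.26), Pcca (-0.25), Lipe (0.17), Aox1 (0.11) and 1 probe each of Abcd3 (0.56), Angptl4 (-0.13) and Myo5b (0.18).

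Whether these changes differed from those of white fat was tested in one fit over 72 arrays, 12 from each of brown, gonadal, inguinal, mesenteric, perirenal and subcutaneous fat, normalized together. The test was of the diet difference in brown fat minus the mean diet difference of the 5 white depots. It called 705 of 18066 genes (3.9%), 355 of them more positive and 350 more negative in brown fat. Because the arrays were scaled with the white depots, the brown fat differences below deviate slightly from those above. The labels do not link tissues of a mouse, so the fit treats all arrays as independent.

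The diet difference of several lipogenic genes was more negative in white than in brown fat. Of 18 tested genes of fatty acid synthesis, 5 were called more positive and 2 more negative in brown fat. Over all genes 3.9% were called. Scd2 (-0.80) and Slc25a1 (-0.62), given as brown minus white, were more negative in brown fat. Thrsp was -2.37 on average in the white depots and -0.26 in brown fat, a brown-minus-white difference of 2.10 ± 0.22 (limma, adjusted p = 9.55e-11). In single depots Thrsp ran from -3.04 in perirenal to -1.75 in mesenteric fat, so brown fat lay outside the range of the depots. Thrsp was near the top of the signal range on every brown fat array, which limits the size of a measured difference there. Acaca was -1.26 in white and 0.01 in brown fat (adjusted p = 1.19e-07), and Acly -1.21 in white and -0.18 in brown fat (adjusted p = 1.82e-07). Elovl6 was -1.96 and -0.51 (adjusted p = 1.99e-05), and Acacb -1.40 and -0.59 (adjusted p = 0.00449). The test was also run without high-fat replicates 3 to 6 of every tissue, here called the reduced set. These were left out by replicate number, and the brightness of the white fat arrays is not given here. A gene that does not pass there may reflect the smaller number of arrays. In the reduced set Thrsp, Acaca and Acly were still called (adjusted p = 2.47e-05, 0.00622 and 0.0011). Elovl6 and Acacb were not (adjusted p = 0.072 and 0.515).

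Most sterol synthesis genes were more negative in brown than in white fat. Of 15 tested genes, 11 were called more negative in brown than in white fat and 0 more positive, where 3.9% of all genes were called; the medians were -0.53 in brown and 0.01 in white fat. Sqle was -0.87 in brown fat and -0.09 in white fat, a difference of -0.78 ± 0.13 (adjusted p = 1.99e-05), and Fdps -0.80 and -0.11 (adjusted p = 0.000664). Tm7sf2 was -0.98 in brown fat and -0.22 in white fat (adjusted p = 6.6e-06), and Insig1 -0.96 and 0.10 (adjusted p = 2.4e-06). The white mean hides a spread: Insig1 was 0.98 in inguinal and -0.41 in mesenteric fat. In the reduced set, which holds fewer arrays, none of these 4 was called, with adjusted p from 0.0606 for Tm7sf2 to 0.732 for Fdps.

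**Figure D5:**
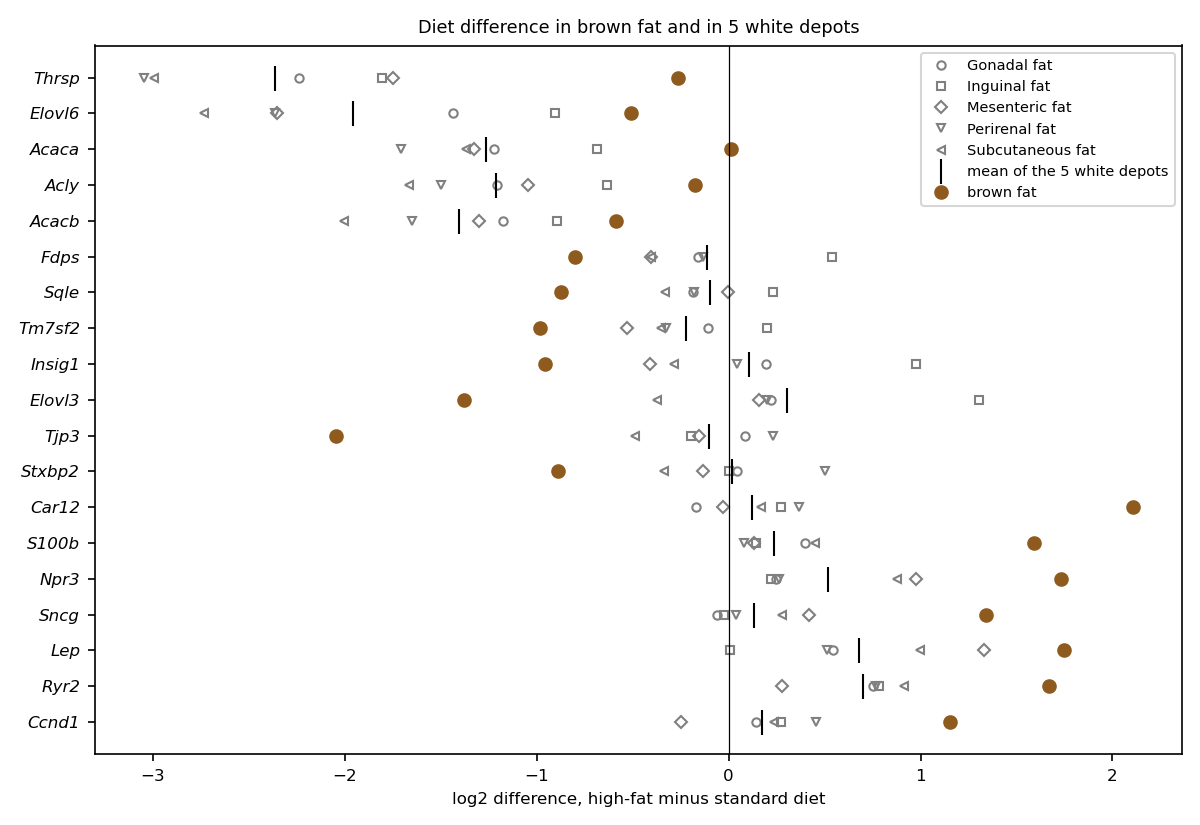
Log2 difference, high-fat minus standard diet, of 19 genes in brown fat (filled circles), in each of the 5 white depots (open symbols) and as the mean of the white depots (bars), from one fit over 72 arrays. Thrsp, Elovl6, Acaca and Acly lie further left in white fat, and the sterol genes, Elovl3 and Tjp3 further left in brown fat.

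Elovl3 was -1.38 in brown and 0.30 in white fat, a difference of -1.68 ± 0.18 (adjusted p = 3.95e-10), with a diet difference of 1.30 in inguinal fat. Ucp1 was 0.31 in brown fat and 1.65 in white fat. The difference passed (adjusted p = 0.0174) but not in the reduced set (adjusted p = 0.748). Other brown adipocyte genes went the other way: Cidea was 0.05 in brown and -0.96 in white fat (adjusted p = 0.00383), and Cox8b 0.01 and -0.78 (adjusted p = 0.0235). Of 21 thermogenic genes 2 were called more positive and 4 more negative in brown fat, where 3.9% of all genes were called. Ucp1, Cidea and Cox8b were near the top of the signal range in brown fat, which limits the size of a measured difference there. Tjp3 (-1.94 ± 0.25, adjusted p = 9.68e-08) and Stxbp2 (-0.90 ± 0.09, adjusted p = 3.18e-11) were lower by diet in brown than in white fat, as was Pde4d (-0.91 ± 0.14, adjusted p = 1.09e-05). Genes with a larger rise in brown fat included Car12 (2.10 against 0.12, adjusted p = 5.67e-07), S100b (1.59 against 0.24, adjusted p = 5.39e-09), Npr3 (1.73 against 0.52, adjusted p = 1.26e-05), Sncg (1.34 against 0.13, adjusted p = 1.41e-06), Ccnd1 (1.15 against 0.17, adjusted p = 9.87e-07), Ryr2 (1.67 against 0.70, adjusted p = 6.61e-06) and Lep (1.75 against 0.68, adjusted p = 0.000745). In the reduced set Npr3, Ccnd1, Sncg, Lep, Elovl3, Cidea and Cox8b did not pass (adjusted p = 0.199, 0.111, 0.265, 0.165, 0.0621, 0.291 and 0.341). There S100b was not tested, and Car12, Ryr2, Tjp3, Stxbp2, Pde4d and Gpt2 passed. Gpt2, a mitochondrial alanine transaminase, was at 0.90 in brown against -0.38 in white fat (adjusted p = 3.86e-11). Macrophage markers had medians of 0.86 in brown and 0.83 in white fat. Of 15 tested, 1 was called more positive and 1 more negative in brown fat.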

How the data were processed

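Brown fat RNA from 6 standard-diet and 6 high-fat mice was measured on Illumina Mouse-6 BeadChips. Per the labels' protocols, RNA was isolated with TRIzol Plus, checked on a Bioanalyzer, amplified and labelled with biotin. The authors deposited one table of intensity values per probe that had not been normalized, and a matrix of log2 values, whose scale and processing are not stated in the sources used here; the log2 matrix the authors deposited served only as an alternative. Scanner software and depth in beads are not given in the sources used here, and the number of arrays limits the precision.

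The 12 arrays were background-corrected with normexp (offset 50), quantile normalized and put on a log2 scale in limma 3.58.1 (R 4.3.3). Probes above the median of mean intensity were kept, with the brightest probe per symbol. Of 46632 probes 29976 carry 1 gene symbol, 10 several and 16646 none; unnamed probes were tested but not named. The diet term was tested with limma's moderated test, with p-values adjusted by the Benjamini-Hochberg method and a threshold of 0.05. For the comparison with white fat, 72 fat arrays were normalized together. The limma tests were also run on simulated log2 values with known changes, without background correction, scaling or probe filtering. Samples were not treated as pairs by replicate number. The correlations of same-numbered deviations ran from -0.0369 to 0.358, and 3 of 6 standard-diet arrays correlated best with their own number. A fit with replicate number as a block gave 3126 calls in place of 2739. What a shared number stands for was not tested.

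Named genes were drawn from the 15 largest rises and falls in which the bright pair lay beyond the whole standard-diet range. They were also drawn from up to 8 members of each list by p and from the thermogenic, adrenergic and adipokine lists in full. Added to these were the 10 smallest p-values each way for the dim-array fit and for brown against white fat. Not every gene that the rule allows is named in the text. Hmgcs1, Acly, Acaca and Fasn fell outside the brown fat part of that rule and were chosen after their values were seen. Cholesterol synthesis genes named without values, among them Hsd17b7, Ebp and Dhcr7, were outside the rule too. The members and lists were chosen with earlier results of these data known. Alternatives were other values, background, scaling, filters, weights, brightness terms, a replicate block and leaving out arrays or depots. The limma p-values set a mean difference against the spread between arrays within a group. For the high-fat arrays that spread holds their differences in brightness as well as those between mice. The part of any dissection-day batch was not tested, because the labels do not give it.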

Additional observations from a re-analysis of the deposited data

Results flagged for a closer look

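Some arrays stood far from the other 5 of their group for a named gene, by Dixon's criterion for the gap to the nearest array (log2 levels throughout). Of 294 groups examined 21 were marked, where chance marks about 5%, so the number of marks lies near chance. Standard-diet replicate 2 was high for macrophage genes and an acute-phase gene, Lgals3 (12.50), Lyz2 (12.14), Trem2 (8.59), Tyrobp (8.32) and Saa3 (8.26), and stood apart for Hoxc8 (11.33) and Ccl2 (7.05). High-fat replicate 1 was low for Lyz2 (11.64), Trem2 (8.10), Lcn2 (8.65) and Cdk1 (7.40), and high for Prkar2b (15.79). High-fat replicate 3 was low for the calcium pumps of muscle, Atp2a1 (12.72) and Atp2a2 (12.62). High-fat replicate 2 was marked for Hadh (10.21) and Hmgcs1 (15.51). Standard-diet replicate 4 was marked for Ebf2 (9.90), Igfbp3 (9.35) and Tjp3 (8.89), and standard-diet replicate 6 for Elovl6 (14.71) and Sorcs2 (9.34).

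The diet difference in brown fat deviated from the white mean by the test of that difference for 50 named genes. Over all genes 705 of 18066 (3.9%) were called. Some of the 50 were named for a small p-value in this same test, so their number is no result about the named genes. Brown minus white was positive for Thrsp (2.10), Car12 (1.98), Elovl6 (1.45), S100b (1.35), Gpt2 (1.28), Acaca (1.28), Nnat (1.25), Npr3 (1.22), Sncg (1.21), Lep (1.07), Acly (1.03), Cidea (1.01), Ccl4 (1.01), Ccnd1 (0.98), Ryr2 (0.97), Acacb (0.82), Cox8b (0.79), Nrg4 (0.62), Psat1 (0.43), Gss (0.42) and Pcca (0.38). It was negative for Tjp3 (-1.94), Elovl3 (-1.68), Ngef (-1.62), Gstp3 (-1.58), Ucp1 (-1.34), Insig1 (-1.06), Mmd2 (-1.06), Myo5b (-1.05), Hilpda (-0.93), Pde4d (-0.91), Stxbp2 (-0.90), Mvd (-0.82), Ppp1r3b (-0.81), Dlk1 (-0.80), Nsdhl (-0.80), Scd2 (-0.80), Sqle (-0.78), Tm7sf2 (-0.76), Fdps (-0.69), Kcnk3 (-0.69), Lss (-0.68), Cyp51 (-0.68), Slc25a1 (-0.62), Pth1r (-0.60), Pmvk (-0.60), Rgs2 (-0.58), Mrc2 (-0.56), Alpl (-0.40) and Abcd3 (-0.38).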

How the results depend on the processing

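The count of 2739 genes depended on how the dim high-fat arrays and the scale were handled. It was 101 with median scaling (4703 at an unadjusted p below 0.05, against 6006 in the reported fit), 179 with a term for the dim arrays, 70 with the bright arrays alone, 1454 with brightness as a covariate, 525 with a fold of at least 1.5, 5106 with array weights and 6439 with the dim high-fat arrays alone. Leaving out 1 array gave 1539 to 4195 calls, the lowest without high-fat replicate 5 and the highest without high-fat replicate 2. It was 1807 without standard-diet replicate 1, and 1777, 1648 and 1585 without high-fat replicates 3, 4 and 6. The replicate block gave 3126; 3 of 6 standard-diet arrays correlated best with their own number. The authors' log2 values and no background correction each gave 2774, no filter 2243, the upper quartile 2240 and all probes 3215.

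The brown-minus-white count of 705 was 44 with median scaling and 38 without high-fat replicates 3 to 6 of every tissue. With the replicate block it was 1745 (a correlation of 0.316 between same-numbered arrays of a diet, though the labels do not say that a number is 1 animal). The count was 451 without inguinal fat, 1197 without mesenteric fat, and 497 to 846 without 1 brown fat array. The brightness difference was -0.27 without high-fat replicate 2 (exact permutation p = 0.0411); leaving out 1 array gave -0.27 to -0.13. Of 117 called genes named, 34 stayed called with median scaling, 50 with the term for the dim arrays and 25 of 116 with bright arrays alone. The naming rule itself used the bright pair and the dim-array fit, so these counts are no check of the calls. Of all 2739 calls, 100 stayed with median scaling and 168 with the term. Cpt1b (-0.10) and Gnas (-0.018) turned negative with median scaling. Cholesterol synthesis had 11 calls, 3 with median scaling, 6 with the term and 0 with bright arrays alone, and macrophage markers 12, 1, 1 and 0. The causes were not tested, apart from the smaller number of arrays or genes that some settings hold. Probes near background or at the top of the range limit the size of measured differences.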
